A study of Bos taurus with 4 samples.

Results

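NANOG, SOX2, PRDM14, SALL4, LIN28B, DPPA4, ESRRB, TFCP2L1, TBX3 and FBXO15 are factors of the core and naïve pluripotency network, and their transcripts were compared between bovine inner cell masses (ICMs) grown in NHSM and in SOF. These 10 genes were taken by name and not by a threshold on a measured value, but with earlier results of these data known. They were matched to the gene symbols in the annotation of the array. They had 19 of the 43653 gene probes, and they are 10 of the 12545 genes that carry a symbol there. In vitro produced bovine embryos were cultured for 4 days in SOF (synthetic oviduct fluid), the usual medium for bovine embryos. They were then moved either to NHSM, a medium made for naïve human stem cells, or to fresh SOF, which served as the control. NHSM, on a base of KO DMEM, contained 20% serum replacement, insulin, the growth factors TGFβ1 (1 ng/ml) and bFGF (8 ng/ml), the cytokine LIF (20 ng/ml) and inhibitors of MEK (PD0325901), GSK3 (CHIR99021), PKC (Go6983), JNK (SP600125) and p38 (SB203580), while for the SOF pools the labels name the medium alone. On day 9 after fertilization the ICMs were cut out with needles and collected in pools of 11 to 24, so that a measured value is the mean of many embryos. The study describes the dissected ICMs as not free of trophectoderm cells. Each of 4 two-colour arrays received 1 NHSM pool and 1 SOF pool, with NHSM labelled in Cy3 on arrays 1 and 3 and in Cy5 on arrays 2 and 4, and the 4 pools of a medium were independent biological replicates per the methods.

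In mammalian embryos and stem cells SOX2, NANOG and OCT4 (POU5F1) form the centre of the network that keeps epiblast cells undifferentiated, and they bind many of the same regulatory regions, their own genes included. Around this core, mouse embryonic stem cells in the naïve state use a further set of factors, among them ESRRB, TFCP2L1, TBX3 and PRDM14, several of which respond to LIF signalling or to inhibition of GSK3. Naïve cells resemble the epiblast before implantation, while primed cells resemble the epiblast after it.

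For each probe the log2 ratio of NHSM over SOF was taken on every array after loess normalization. A negative ratio therefore means less transcript in the NHSM pool. A linear model with a term for the medium and a term for the dye was fitted with limma over all gene probes. A probe passed when its p-value, adjusted over all 43653 probes by the Benjamini-Hochberg method, was under 0.05. Intensities per pool are normalized spot intensities in scanner units, and a spot counted as above the floor when it exceeded the 95th percentile of the control spots of its channel. In bulk pools of this kind, fewer cells of a type and less RNA per cell cannot be told apart.

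Between 44.0% and 72.1% of the gene probes were above the floor in an NHSM pool and between 48.8% and 67.3% in a SOF pool. Across all gene probes the log2 ratios of 2 arrays correlated with r of 0.56 to 0.59 where the dyes were the same way round, and with r of 0.06 to 0.19 where they were opposite. NANOG and SOX2, which define the epiblast, were above the floor in all 8 pools by at least 1 probe each, and POU5F1 had no probe under its symbol. Of the 19 probes of the factors, 12 were above the floor in all 8 pools and 17 were above it in at least 1 pool of each medium. These 17 represented 9 of the 10 genes. The gene left out was LIN28B, whose single probe was at the floor in every pool. No spot of the factors reached saturation.

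NANOG, SOX2, PRDM14 and TBX3 were lower in NHSM ICMs, each by 1 probe and each by 1.24- to 1.28-fold. These 4 probes were lower in NHSM on all 4 arrays, as 9.95% of all gene probes were. Thus 4 of 19 probes (21.1%) passed as lower, beside 4.01% of all gene probes, and 0 of 19 passed as higher, beside 4.42% of all gene probes and 8.43% in either direction. At an unadjusted p under 0.05, limma gave 7 of the 19 probes (36.8%, beside 19.1% of all gene probes), all of them lower, and 0 higher. None of the 19 probes both passed and differed by at least 1.5-fold, as 1.75% of all gene probes did. The 95% confidence intervals of the 19 log2 ratios spanned -0.51 to 0.26 and so ended short of 1.5-fold, which is 0.58 on this scale. Among the 17 probes above the floor in each medium, 14 had a negative log2 ratio, beside 16467 of all 30655 such gene probes. The median of the 17 was -0.19, whereas the median of all such gene probes was -0.01. Among the 12 probes above the floor in all pools, 4 (33.3%) were lower, beside 8.3% of the probes that were above it in all 4 pools of a medium. With array 2 left out 0 of the 19 probes passed, and likewise 0 with array 4 left out, while 5 passed without array 1. The ratios of the 4 lower probes stayed between -0.38 and -0.27 without array 2 or 4. Over all gene probes the number of lower calls went the same way, being 805 without array 2, 861 without array 4 and 2426 without array 1, against 1751 with all 4 arrays. With arrays centred on their median in place of loess, 0 of the 19 passed, and the share of lower probes among all that passed was 32.7%, against 47.6% with loess.

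**Figure D1:**
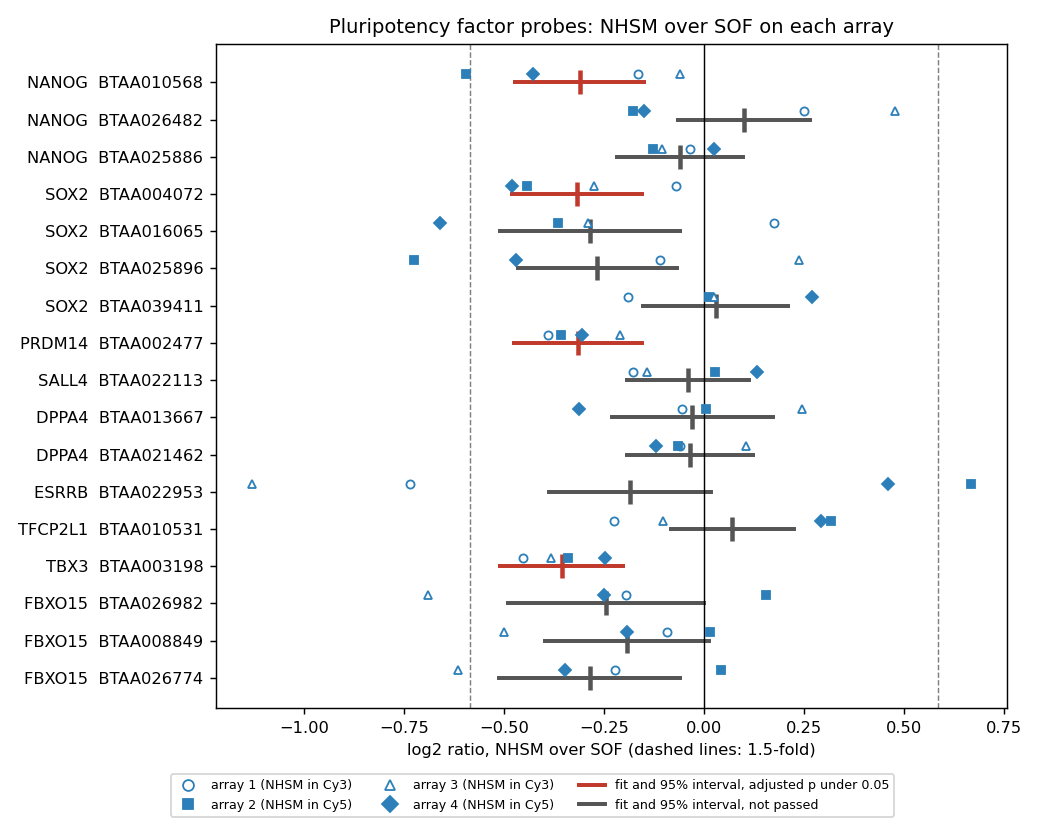
Log2 ratio of NHSM over SOF for the 17 probes above the floor in at least 1 pool of each medium, by probe down the page. Symbols are the 4 arrays, vertical ticks and bars are the limma estimate and its 95% confidence interval (red where the adjusted p was under 0.05), and dashed lines mark 1.5-fold. The 4 red intervals, of NANOG, SOX2, PRDM14 and TBX3, lie left of 0 and inside the dashed line, and the ESRRB arrays lie on both sides of 0 according to the dye.

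**Figure D2:**
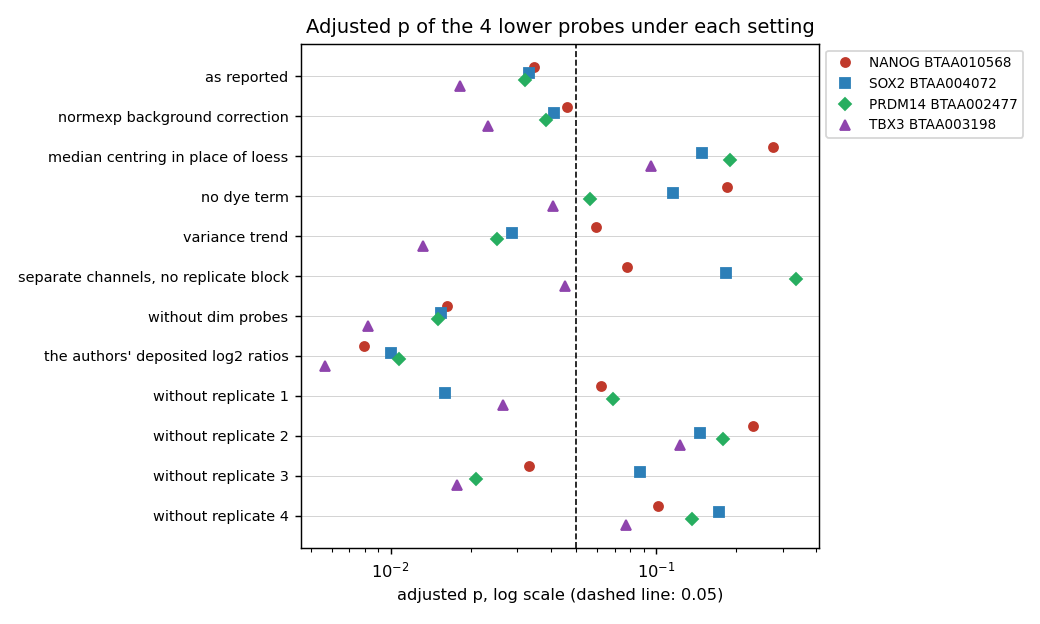
Adjusted p (horizontal, log scale, dashed line at 0.05) of the 4 lower probes as reported, at the top, and under each of 11 alternative settings, by setting down the page. All 4 probes lie right of the line without array 2, without array 4 and with median centring; TBX3 lies left of it in 8 of the 11 alternatives, SOX2 and PRDM14 in 5 and NANOG in 4.

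NANOG is the homeodomain factor that marks the epiblast of the blastocyst. Its brightest probe (BTAA010568) read 3819, 3093, 4025 and 3389 units in NHSM pools 1 to 4, against 4279, 4672, 4195 and 4556 units in SOF pools 1 to 4. Every NHSM pool was below every SOF pool, with means of 3581 ± 420.0 units in NHSM and 4426 ± 225 units in SOF (SD, n = 4 each). Complete separation of this kind, with the NHSM pools below, was found for 2 of the 19 probes described here and for 3.92% of all gene probes (7.87% counting separation in either direction). The log2 ratio of NANOG was -0.31 ± 0.07 (SE, adjusted p = 0.0348), which is 1.24-fold lower in NHSM. The difference was -0.16 and -0.06 on the arrays with NHSM in Cy3, and -0.60 and -0.43 on those with NHSM in Cy5. The adjusted p was 0.0620 without array 1, 0.231 without array 2 and 0.101 without array 4.

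The other probes of NANOG did not show this difference. Probe BTAA026482 read 231, 231, 351 and 262 units in NHSM pools, against 194, 261, 252 and 290.4 units in SOF pools, and had a log2 ratio of 0.10 ± 0.07 (SE, adjusted p = 0.583). Its pools overlapped and its ratio was positive on arrays 1 and 3 and negative on arrays 2 and 4. Probe BTAA025886 was close to the floor, with 3 of 4 pools above it in each medium, and had a log2 ratio of -0.06 (95% confidence interval -0.22 to 0.10). On each of the 4 arrays the ratio of BTAA010568 was below that of BTAA026482, by a mean of -0.41 ± 0.11 (SD). The exact two-sided sign-flip test gave p = 0.125 for this pair, the smallest value that 4 arrays allow (adjusted p = 0.563 over 9 pairs of probes from the same gene). Averaged over its 3 probes, NANOG had a log2 ratio of -0.09 (adjusted p = 0.370 over genes).

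SOX2, the HMG-box partner of OCT4, had 5 probes. The brightest (BTAA004072) read 777, 686, 833 and 780.0 units in NHSM pools 1 to 4, against 817, 933, 1009 and 1088 units in SOF pools 1 to 4. On every array the NHSM pool was the lower one, although NHSM pool 3 was above SOF pool 1. The means were 769 ± 61.1 units in NHSM and 962 ± 115 units in SOF (SD, n = 4 each), and the log2 ratio was -0.32 ± 0.07 (SE, adjusted p = 0.0332), or 1.25-fold lower. The adjusted p was 0.146 without array 2, 0.0865 without array 3 and 0.173 without array 4.

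A further 2 SOX2 probes gave estimates of similar size that did not pass. BTAA016065 read 399, 260.2, 291 and 249 units in NHSM pools, against 354, 335, 356 and 394 units in SOF pools, with a log2 ratio of -0.29 ± 0.10 (SE, adjusted p = 0.140). NHSM pool 1 was the highest of the 8 pools and the other NHSM pools were the lowest 3, and the estimate depended on the array left out. It was -0.40 without array 1 (adjusted p = 0.0157), -0.17 without array 3 (adjusted p = 0.408) and -0.21 without array 4 (adjusted p = 0.563). BTAA025896 read 169, 178, 308 and 198 units in NHSM pools, against 182, 295, 261 and 274 units in SOF pools, with a log2 ratio of -0.27 ± 0.08 (SE, adjusted p = 0.119). Here NHSM pool 3 was the highest of all, and the estimate was -0.35 without array 3 (adjusted p = 0.0314), against -0.18 without array 1 (adjusted p = 0.294) and -0.20 without array 2 (adjusted p = 0.494). BTAA039411 was near the floor at 0.03 (95% confidence interval -0.15 to 0.21), and BTAA025897 was above the floor in 0 NHSM pools and 1 SOF pool, so no fold is given for it. The mean over the 5 probes was -0.19 (adjusted p = 0.0597 over genes). The paper, by contrast, reports SOX2 at similar levels in both media on these arrays. It chose the probe of a gene by its position, which was not used here.

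SALL4 is a zinc finger factor that acts with the core and is needed for the growth of the epiblast in mouse. Its probe (BTAA022113) read 169.8, 164, 181 and 181 units in NHSM pools 1 to 4, against 192, 161, 200.2 and 165 units in SOF pools 1 to 4. The NHSM pools lay within the range of the SOF pools. The log2 ratio was -0.04 ± 0.07 (SE, adjusted p = 0.878), with a 95% confidence interval of -0.19 to 0.11.

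**Figure D3:**
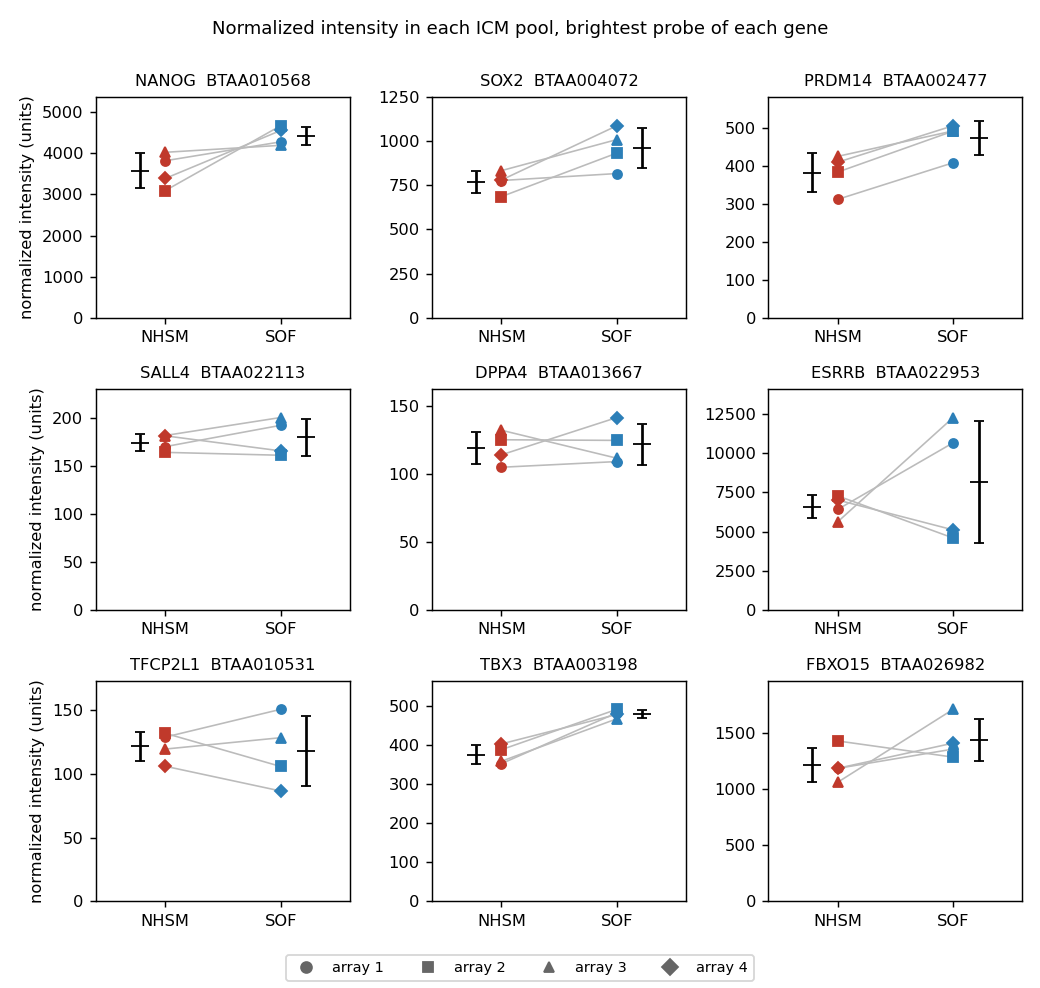
Normalized intensity in scanner units of the brightest probe of 9 factors in each pool, NHSM left and SOF right, with lines joining the pools of 1 array and bars for the mean ± SD (n = 4 pools). NANOG and TBX3 are the 2 panels in which all NHSM pools lie below all SOF pools; the SOF pools of ESRRB form a high pair (10682 and 12299.7 units) and a low pair (4584 and 5103 units).

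PRDM14, a PR-domain zinc finger protein, represses differentiation genes in naïve mouse stem cells and is required for primordial germ cells in mouse. Its probe (BTAA002477) read 313, 385, 426 and 411 units in NHSM pools 1 to 4, against 409, 493, 493 and 507 units in SOF pools 1 to 4. The NHSM pool was lower on each array, by -0.39, -0.36, -0.21 and -0.30 in log2 units, and the pools of array 1 were the lowest of their medium, so that SOF pool 1 lay within the range of the NHSM pools. The means were 383 ± 50.3 units in NHSM and 476 ± 44.7 units in SOF (SD, n = 4 each), and the log2 ratio was -0.32 ± 0.07 (SE, adjusted p = 0.0321). The fitted dye effect of the probe was -0.02 (log2 Cy5 over Cy3). The adjusted p was 0.0687 without array 1, 0.178 without array 2 and 0.137 without array 4.

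TBX3, a T-box factor that sustains Nanog expression downstream of LIF in mouse embryonic stem cells, had the smallest adjusted p of the 19 probes. It read (BTAA003198) 352, 388, 358 and 403 units in NHSM pools 1 to 4, against 482, 491, 467 and 478 units in SOF pools 1 to 4. All NHSM pools were below all SOF pools, and the SOF pools spanned a narrow range. The means were 375 ± 24.0 units in NHSM and 479 ± 10.0 units in SOF (SD, n = 4 each). The log2 ratio of -0.36 ± 0.07 (SE, adjusted p = 0.0182) is 1.28-fold lower in NHSM and was -0.45 and -0.38 with NHSM in Cy3, and -0.34 and -0.25 with NHSM in Cy5. The adjusted p was 0.123 without array 2 and 0.0770 without array 4. From these arrays the paper also reports TBX3 as lower in NHSM ICMs. In a separate comparison, of ICM and trophectoderm from embryos grown in SOF, it found no differential expression of TBX3, ESRRB or KLF4.

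ESRRB is an orphan nuclear receptor that, in mouse, is a direct target of the pathway opened by inhibition of GSK3. Its probe (BTAA022953) read 6414, 7282, 5619 and 7017 units in NHSM pools 1 to 4, against 10682, 4584, 12299.7 and 5103 units in SOF pools 1 to 4. The NHSM pools lay between the 2 SOF pools labelled in Cy5, which were high, and the 2 labelled in Cy3, which were low. Accordingly the log2 ratio was -0.74 and -1.13 on the arrays with NHSM in Cy3, and 0.67 and 0.46 on those with NHSM in Cy5. The probe had a dye effect of 0.75 (log2 Cy5 over Cy3, adjusted p = 0.00613), a test that 2.77% of all gene probes and 1 of these 19 passed. With the dye effect taken off, the ratios were 0.01, -0.08, -0.38 and -0.29 on arrays 1 to 4. The estimate was -0.18 ± 0.09 (SE, adjusted p = 0.320), with a 95% confidence interval of -0.39 to 0.02. The paper reports ESRRB as unchanged on these arrays.

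TFCP2L1, a grainyhead-like factor that acts downstream of LIF and STAT3 in mouse, was read close to the floor. Its probe (BTAA010531) read 129, 132, 119 and 106 units in NHSM pools 1 to 4, against 151, 106, 128 and 86.6 units in SOF pools 1 to 4. The pools overlapped, and 3 NHSM pools and 2 SOF pools were above the floor. The log2 ratio was 0.07 ± 0.07 (SE, adjusted p = 0.723) with a 95% confidence interval of -0.08 to 0.22, and its sign followed the dye, being negative on arrays 1 and 3 and positive on arrays 2 and 4.

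FBXO15 encodes an F-box protein whose mouse gene is a target of OCT4 and SOX2 and a marker of undifferentiated cells. All 3 of its probes were above the floor in all pools and gave the same picture. BTAA026982 read 1188, 1433, 1064 and 1188 units in NHSM pools 1 to 4, against 1360.3, 1288, 1715 and 1414 units in SOF pools 1 to 4. BTAA008849 read 986, 1069, 838 and 1009 units in NHSM pools 1 to 4, against 1051, 1058, 1186 and 1153 units in SOF pools 1 to 4. For both, NHSM pool 2 was above its SOF partner and the other 3 NHSM pools were below theirs. BTAA026774 read 874, 985, 810.4 and 993 units in NHSM pools 1 to 4, against 1021, 957, 1241 and 1264 units in SOF pools 1 to 4. Here too array 2 was the exception. The log2 ratios were -0.25 ± 0.10 (adjusted p = 0.263), -0.19 ± 0.09 (adjusted p = 0.302) and -0.29 ± 0.10 (SE, adjusted p = 0.140), and the pools of the media overlapped for each. Without array 1, BTAA026982 (-0.37, adjusted p = 0.0332) and BTAA026774 (-0.38, adjusted p = 0.0263) passed. Without array 3 they were at -0.12 (adjusted p = 0.647) and -0.19 (adjusted p = 0.367), and without array 4 at -0.14 (adjusted p = 0.819) and -0.19 (adjusted p = 0.615). The mean over the 3 probes was -0.24 (adjusted p = 0.147 over genes).

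DPPA4, a chromatin-bound protein expressed in pluripotent and germ cells, and LIN28B, an RNA-binding protein that blocks the maturation of let-7 microRNAs, were read at or near the floor. The brighter DPPA4 probe (BTAA013667) read 105, 125, 132 and 114 units in NHSM pools 1 to 4, against 109, 124, 111 and 141 units in SOF pools 1 to 4, with 3 of 4 pools above the floor in each medium. The pools overlapped and the log2 ratio was -0.03 ± 0.09 (SE, adjusted p = 0.944, 95% confidence interval -0.23 to 0.17). The other DPPA4 probe (BTAA021462) was above the floor in 1 pool of each medium and had a log2 ratio of -0.04. The LIN28B probe (BTAA011496) read 81.8 to 95.4 units in NHSM pools and 84.2 to 101.6 units in SOF pools, at the floor in all 8, so no fold is given and a difference was not detectable at this signal.

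The 4 probes that passed had mean log2 intensities of 8.73 (TBX3 and PRDM14), 9.75 (SOX2) and 11.96 (NANOG). The share of gene probes that passed in either direction was 0% in the dimmest twentieth of all gene probes and 25.1% at its peak, in the twentieth centred on a log2 intensity of 10.08. The 7 probes of the factors that were not above the floor in all pools of a medium had a median log2 ratio of -0.04, and 0 of the 7 passed.

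**Figure D4:**
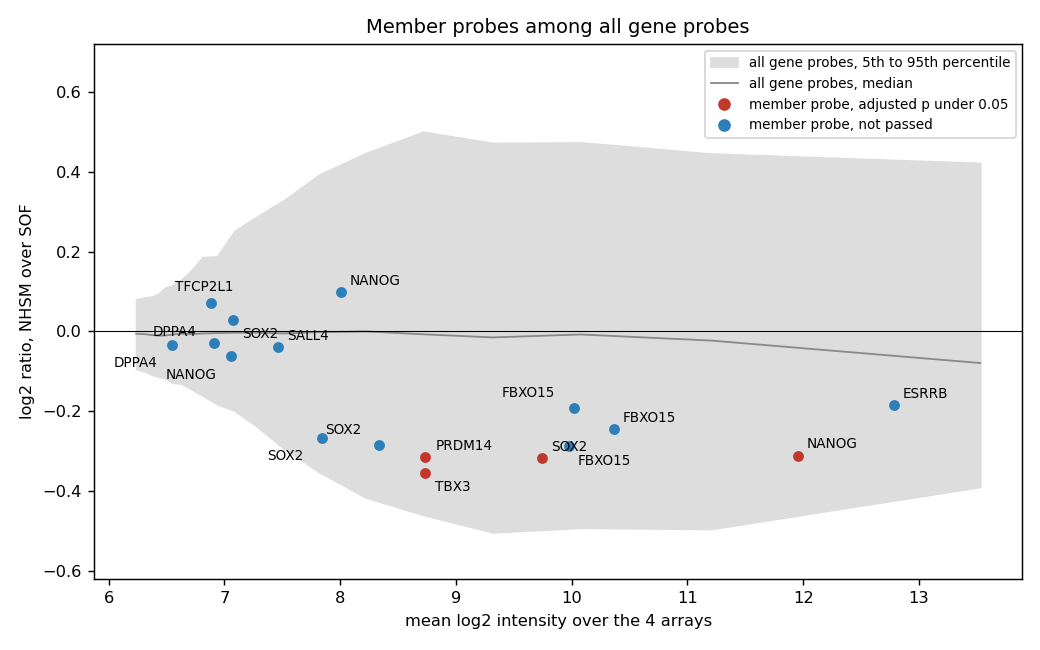
Limma log2 ratio of NHSM over SOF (vertical) against mean log2 intensity over the 4 arrays (horizontal) for the 17 probes measured in both media (points, red where they passed), over the median line and the grey 5th to 95th percentile band of all gene probes. The 4 red points, of NANOG, SOX2, PRDM14 and TBX3, lie between -0.36 and -0.31 and inside the grey band, and the probes at the dim left end lie close to 0.

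Other genes of the network were read from 1 probe per gene, the brightest, with p-values adjusted over the 12545 genes. By this measure 4 of the 10 factors were lower and 0 higher, beside 6.91% and 6.87% of all genes, with a median log2 ratio of -0.22 against -0.02 for all genes. By the mean of the probes of each gene, 2 of the 10 were lower (PRDM14 with an adjusted p of 0.0129 and TBX3 with 0.00686) and 0 higher, beside 4.5% and 6.5% of all genes. A list of 43 further core and naïve genes was read too, of which 23 had a probe under their symbol. Among these, 4 were lower, 0 were higher and 19 did not pass, with a median of -0.10, and 2 of the 23 were at the floor in every pool. The rest of the list was not read here, although the array can hold probes for it under no symbol. From these arrays the paper reports TDGF1, TCF7L1 and DPPA3 as lower in NHSM. It reports POU5F1, DPPA2, NR5A2 and KLF2 as similar or not significantly changed. The list holds TCF3, which under this symbol is the E-box factor E2A and not TCF7L1, the repressor of the naïve network, and without it 3 of 22 were lower with a median of -0.09. SALL2, a zinc finger relative of SALL4, had 371, 350.0, 277 and 318 units in NHSM pools, against 463, 430.3, 427 and 475 units in SOF pools, and a log2 ratio of -0.46 ± 0.08 (SE, adjusted p = 0.0122). MYC, a target of LIF and Wnt signalling that drives growth and proliferation, had 195, 219, 211 and 201 units in NHSM pools, against 256, 272, 253 and 260.2 units in SOF pools, and a log2 ratio of -0.34 ± 0.07 (SE, adjusted p = 0.0159). For both genes every NHSM pool was below every SOF pool. TCF3 had 307, 266, 252 and 272 units in NHSM pools, against 359, 386, 323 and 356 units in SOF pools, with a log2 ratio of -0.38 ± 0.07 (SE, adjusted p = 0.0121). RIF1, a protein of replication timing and DNA repair that is abundant in mouse embryonic stem cells, had 854, 623, 572 and 573 units in NHSM pools, against 809, 869, 738 and 910.0 units in SOF pools, with a log2 ratio of -0.36 ± 0.09 (SE, adjusted p = 0.0383). The TCF3 pools were also separate, while NHSM pool 1 of RIF1 was among the SOF values. Without array 2 the adjusted p was 0.0862 for TCF3, 0.0762 for MYC and 0.0783 for RIF1. Without array 4 it was 0.0674 for SALL2, 0.100 for MYC and 0.175 for RIF1, and without array 3 it was 0.0946 for RIF1. The genes that did not pass included KLF4 (-0.31, adjusted p = 0.171), KLF5 (-0.21, adjusted p = 0.185), STAT3 (-0.07, adjusted p = 0.660), TFAP2C, which trophectoderm also expresses (-0.10, adjusted p = 0.429), and SOCS3, a direct target of LIF signalling (0.02, adjusted p = 0.899). SOCS3 was read close to the floor, with 3 NHSM pools and 4 SOF pools above it. The paper, by contrast, reports KLF5 as moderately lower in NHSM on these arrays, and KLF4 as not significantly changed.

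Genes of the primed epiblast were also considered, of which 12 of 20 listed had a probe under their symbol. Of these, 1 (ZIC2) was lower, 0 were higher and 11 did not pass, with a median log2 ratio of -0.09. At the floor in every pool were 4 of the 12 (SPRY4, FOXD3, FGF5 and TBXT), so a difference was not detectable for them. The paper lists SPRY4 among the genes with the largest differences on these arrays, lower in NHSM. ZIC2, a zinc finger factor of the post-implantation epiblast and the neural plate, had 309, 436, 457 and 475 units in NHSM pools 1 to 4, against 791, 935, 823 and 815 units in SOF pools 1 to 4. The pools were far apart, and the log2 ratio of -1.02 ± 0.10 (SE, adjusted p = 0.00142) is 2.03-fold lower in NHSM. Without array 1, 3 of the 12 genes were lower. DNMT3A, a methyltransferase, was at -0.26 (adjusted p = 0.0945).

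Markers of the other cells that a dissected ICM can hold were read in the same way, again beside 6.91% of all genes lower and 6.87% higher. Of 27 listed trophectoderm genes, 20 were measured, of which 4 were lower, 1 was higher and 15 did not pass, with a median log2 ratio of -0.11. IFNT was among those without a probe under its symbol. In the paper an interferon-tau gene has the largest difference on these arrays, lower in NHSM. The summed intensity of the list was 78749 to 99805 units in NHSM pools and 92652 to 107510.0 units in SOF pools, and none of its genes was at the floor in every pool. TFAP2C alone made up 57136 of the 107510.0 units in SOF pool 4, and without it the sum was 42628 to 52524 units in NHSM pools and 50374 to 61501 units in SOF pools. The TFAP2C ratio followed the dye, at 0.62 and 0.51 with NHSM in Cy3 and -0.69 and -0.85 with NHSM in Cy5. GATA3 followed it the other way, at -0.80 and -1.21 with NHSM in Cy3 and 0.88 and 0.66 with NHSM in Cy5. The range of these sums over pools is therefore not free of the dye. CGN, a tight junction protein, was lower at -0.74 (adjusted p = 0.00313) and TFAP2A, a trophoblast AP-2 factor, at -0.46 (adjusted p = 0.00818), while KRT7 was higher at 0.40 (adjusted p = 0.0189). The other lower genes were GATA2, a trophoblast transcription factor, at -0.35 (adjusted p = 0.0208) and SLC2A1, a glucose transporter, at -0.34 (adjusted p = 0.0245). Without array 2 the adjusted p was 0.146 for GATA2, 0.144 for SLC2A1 and 0.112 for KRT7, and 2 genes of the list were lower. Without array 3 it was 0.0605 and without array 4 it was 0.0688 for SLC2A1. Of 25 listed hypoblast genes, 20 were measured, of which 3 were lower, 0 were higher and 17 did not pass, with a median of -0.06. The hypoblast list summed to 24201 to 31537 units in NHSM pools and 29883 to 34306 units in SOF pools, with none at the floor in every pool, and its largest differences were those of LAMB1, a laminin chain (-0.72, adjusted p = 0.00101), and SPARC, a matrix protein (-0.58, adjusted p = 0.00187). The other lower hypoblast gene was GATA6, a marker of that lineage, at -0.44 (adjusted p = 0.0069), which passed in 9 of 11 alternatives. Of 18 listed cumulus and granulosa genes, 13 were measured, of which 2 were lower, 1 was higher and 10 did not pass, with a median of -0.06, and 1 was at the floor in every pool. The sum of that list, 53247 to 66464 units in NHSM pools and 52792 to 94094 units in SOF pools, was carried by AMH and STAR, and without these it was 4547 to 5473 units in NHSM pools and 4195 to 6872 units in SOF pools. FST, an activin-binding protein, was lower (-0.51, adjusted p = 0.0220), AMH was lower (-0.32, adjusted p = 0.0371) and FSHR was higher (0.44, adjusted p = 0.0103). The AMH ratio followed the dye, at -0.94 and -1.11 with NHSM in Cy3 and 0.24 and 0.55 with NHSM in Cy5, it passed in 3 of 11 alternatives, and it was -0.14 (adjusted p = 0.107) with the authors' ratios. Without array 2 the adjusted p was 0.237 for AMH, 0.0733 for FST and 0.0663 for FSHR. For AMH it was 0.0767 without array 3 and 0.0506 without array 4. Of this list 4 genes were lower without array 1 and 1 without array 2, 3 or 4. The part of these cells in the lower readings of NANOG, SOX2, PRDM14 and TBX3 was not tested.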

How the data were processed

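Total RNA of 4 NHSM and 4 SOF pools was amplified, labelled and hybridized by the authors to 4 two-colour bovine Agilent arrays, and spots were quantified with ImaGene 8.0. The scanner files hold spot and background intensity on a linear scale, as deposited, not normalized. The authors' table holds log2 ratios of Cy5 over Cy3 after loess and a correction of dye bias per probe, and was used as an alternative.

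Of 45220 spots per array, 1567 were controls. Loess was run on the mean intensities of every array (controls at weight 0, no background correction), and channel values were further scaled with Aquantile. Ratios were fitted with limma 3.58.1 in R 4.3.3 with a medium and a dye term (2 residual and 5.33 prior degrees of freedom), after a test on simulated data. The floor was the 95th percentile of spots of the 2 most repeated control probes (604 and 153 spots), at 83.5 to 125 units in Cy5 and 113 to 140.3 in Cy3. Precision is limited by the number of arrays.

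Of the gene probes, 27952 carry 1 symbol and 0 carry several; 1831 symbols were updated through RefSeq (ARS-UCD2.0). The 10 factors, the gene lists and the tests were chosen with earlier results of these data known. Named were all probes of the factors and each core, naïve or primed gene that passed. From the lists of hypoblast, trophectoderm, cumulus and granulosa and germ cell genes the 2 passing genes with the largest ratios were named. KLF4, KLF5, STAT3, TFAP2C, SOCS3, DNMT3A, SPRY4, FOXD3, FGF5, TBXT, KRT7, GATA2, GATA3, SLC2A1, GATA6, AMH, STAR, NANOS3, PRDM1 and KIT were named after their values were seen. Genes without a probe under their symbol were named for what the paper reports on them. Alternatives were normexp background correction (offset 50), median centring, no dye term, a variance trend, separate channels with no replicate block, no dim probes, the authors' ratios, leaving out each array, the mean of a gene's probes and a 1.5-fold minimum, and, added after seeing the data, the list without TCF3. Pairing of the pools comes from the array that they shared.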

Additional observations from a re-analysis of the deposited data

Results flagged for a closer look

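The PRDM14 probe stood out for 1 SOF pool. SOF pool 1 read 409.3 units, while the other 3 SOF pools read 492.8 to 507.0 units, so that the gap to the nearest pool made up 0.867 of the range of the group on the log2 scale, above the 95% critical value of Dixon's test. Of 51 groups of 4 values that were examined in this way (the ratios, NHSM pools and SOF pools of 17 probes), 1 stood out, and chance gives about 1 in 20. NHSM pool 1, hybridized to the same array, was the lowest NHSM pool at 313 units, and the log2 ratio of PRDM14 on that array was -0.39, beside -0.36, -0.21 and -0.30 on arrays 2 to 4.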

How the results depend on the processing

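Of the 19 probes of the factors, 4 passed as reported, and 0 passed with median centring, 1 with no dye term, 1 with separate channels and no replicate block, and 0 at a minimum of 1.5-fold. Leaving out an array gave 0 to 5. The other settings gave 3 or 4. Of the further core and naïve genes, 4 passed as reported, 2 with median centring (adjusted p of 0.0519 for MYC and 0.0535 for RIF1) and 0 at a minimum of 1.5-fold, and leaving out an array gave 1 to 5. Without TCF3, a choice made after seeing the data, the count was 3. By the mean of their probes, 2 of the 10 factors passed, against 4 by the brightest probe. The 4 lower probes kept a negative ratio in all 11 alternatives, between -0.35 and -0.24 for NANOG, -0.37 and -0.24 for SOX2, -0.36 and -0.25 for PRDM14 and -0.38 and -0.30 for TBX3. With no replicate block their adjusted p was 0.0776 for NANOG, 0.182 for SOX2, 0.334 for PRDM14 and 0.0453 for TBX3. Of 182 ratios of single probes under an alternative, 150 kept their sign and their side of the threshold, 22 no longer passed, 4 newly passed and 6 changed sign. The sign changes were those of SOX2 BTAA039411 (-0.0251 without array 3 and -0.0354 without array 4, over a range of -0.0354 to 0.0926 when each array was left out), DPPA4 BTAA013667 (0.0458 without array 1 and 0.0497 without array 4, over -0.109 to 0.0497), DPPA4 BTAA021462 (0.00567 without array 1, over -0.0759 to 0.00567) and TFCP2L1 (-0.0218 with median centring), all of them close to the floor. The cause was not tested. Signal over background limits what can be said of LIN28B, DPPA4 and TFCP2L1, and no sequence or position of a probe was used here.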

Other observations

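PRDM14 also belongs to the programme of primordial germ cells, so germ cell genes were read beside it, from 1 probe per gene. Of 12 listed, 9 had a probe under their symbol, of which 2 were higher in NHSM ICMs, 0 were lower and 7 did not pass (6.87% of all genes were higher and 6.91% lower), with a median log2 ratio of -0.03. DAZL, which binds germ cell mRNAs, had 1171, 1400 and 1661 units in NHSM pools 1 to 3 and 1710.2 units in NHSM pool 4, against 389, 425, 445 and 508 units in SOF pools 1 to 4, a log2 ratio of 1.74 ± 0.08 (SE, adjusted p = 0.000174), or 3.34-fold higher. It passed in all 11 alternatives. SYCP3, a protein of the meiotic chromosome axis, was higher by 0.59 ± 0.12 (SE, adjusted p = 0.0152) and positive on 4 of 4 arrays, with an adjusted p of 0.0866 without the dye term, 0.164 with separate channels and 0.0561 without array 4, where 1 gene of the list was higher. NANOS3 (-0.03, adjusted p = 0.842), PRDM1 (-0.01, adjusted p = 0.961) and KIT (-0.11, adjusted p = 0.661) did not pass.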
